A study of Mus musculus with 2 samples.

Results

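The S100a genes encode small calcium-binding proteins, and 10 of them were followed here across 2 arrays of mouse embryonic stem cells (ESCs). S100a1, S100a3, S100a4, S100a6, S100a8, S100a9, S100a10, S100a11, S100a13 and S100a16 were matched to the array through the accession of each probe, and every probe of each gene was taken, 13 probes in all, with 2 probes for each of S100a1, S100a4 and S100a16 and 1 for each other member. The members were chosen by their overexpression over WT ratios and channel signals on these same arrays, so those values are given as a description with no test. Of the 10 members, 8 had a brightest probe that stood well above background on both arrays within the overexpression channel, the WT channel or both, among 16067 genes that met this filter and 20284 genes with a named probe. S100a8 and S100a9 did not meet it.

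The series compared ESCs labelled HDAC6 overexpression with WT ESCs. HDAC6 is a mainly cytoplasmic deacetylase that acts on alpha-tubulin and other proteins. Both kinds of cell were of the B6C3F1 strain, at passage 26, and both were grown in serum with the cytokine LIF on mouse embryonic fibroblasts whose division had been stopped with mitomycin C (feeders), so feeder RNA can be present in both. On each of 2 arrays, linearly amplified material of the overexpressing cells carried Cy5 and that of the WT cells carried Cy3, with no dye swap, so a dye effect would stand in every ratio. How the overexpression was made, and whether the line is 1 clone, is not given in the sources used here. The arrays are labelled as biological replicates 1 and 2, but the deposited file names number the overexpressing and the WT material alike on both, so the p-values below measure only the spread between these arrays, which may be technical. Hdac6 had processed signals of 18275 and 17344 in the overexpression channel of replicates 1 and 2, against 16389 and 17806 in the WT channel, a mean log2 ratio of 0.06 ± 0.14 (SD, n = 2 arrays; limma adjusted p = 0.64). With median centring in place of the processed signals it was 0.52 (limma adjusted p = 0.0013). That setting also gave higher ratios to bright genes in general, with a median of 0.53 in decile 10 of brightness and 0.19 in decile 9. Whether that probe reads the introduced copy is not given in the sources used here, so it does not check the labels.

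S100 proteins are small EF-hand proteins that mostly work as dimers. On binding calcium most of them open a hydrophobic patch that holds a target protein, such as an annexin or a myosin tail, and several are also released from cells, where they act on surface receptors. S100a10 is the exception in that it does not need calcium and stays bound to annexin A2. S100a4 is widely used as a marker of fibroblasts, and S100a8 and S100a9 form calprotectin, an abundant protein of neutrophils. The genes lie in a cluster on mouse chromosome 3, together with genes for structural proteins of the epidermis.

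RefSeq promoter windows (GRCm38.p6) were matched for 9 of the 10 members, with 13 windows in all since S100a3 has 4 and S100a16 has 2. The 250 bases before each start were searched on both strands for the TATA box letters TATAAA, for the AP-1 letters TGANTCA, for the GC box letters GGGCGG and for the CCAAT box. TATAAA stood in 3 of the 13 windows, of S100a3, S100a4 and S100a8, against 12.4% of all 32851 promoter windows. TGANTCA stood in 2 of 13, of S100a11 and S100a16, against 6.75% of all. GGGCGG stood in 4 of 13 against 32.7%, and CCAAT in 2 of 13 against 33.8%. The 150 bases before the start are shown for S100a4 and S100a11, the members with the highest ratios, for S100a3, the one member with a ratio below 1 among those measured (the window with both a TATA box and a CCAAT match), and for S100a13, whose window overlaps that of S100a1. Capitals mark matches to these motifs.
S100a4, chr3:90603620-90603769, + strand: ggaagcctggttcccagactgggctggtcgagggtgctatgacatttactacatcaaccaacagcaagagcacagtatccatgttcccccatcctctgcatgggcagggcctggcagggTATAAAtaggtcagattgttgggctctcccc
S100a11, chr3:93520346-93520495, + strand: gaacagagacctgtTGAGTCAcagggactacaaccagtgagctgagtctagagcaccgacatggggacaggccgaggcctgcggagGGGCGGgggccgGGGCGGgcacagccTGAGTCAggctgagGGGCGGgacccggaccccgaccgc
S100a3, chr3:90588413-90588562, + strand: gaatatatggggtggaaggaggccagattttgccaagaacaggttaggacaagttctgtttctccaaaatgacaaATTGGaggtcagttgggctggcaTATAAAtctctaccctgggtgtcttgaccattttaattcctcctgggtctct
S100a13, chr3:90514285-90514434, + strand: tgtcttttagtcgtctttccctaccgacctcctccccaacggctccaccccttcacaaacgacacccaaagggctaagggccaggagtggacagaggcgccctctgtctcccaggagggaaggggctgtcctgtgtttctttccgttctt
The S100a4 stretch holds 1 TATAAA, and that of S100a11 holds 2 TGAGTCA and 3 GGGCGG. S100a1 runs on the other strand, and 104 bases lie between its start and the S100a13 start used here. The annotated S100a13 gene begins before these bases, so they lie before this start but within the annotated span of that gene. The S100a3 windows, with the stretch shown, likewise lie within the annotated span of S100a3. The S100a11 window had 11 CpG and the S100a13 window 13, while the median over all windows was 6 and the S100a4 window had 2. A match describes the letters and does not show that a factor binds.

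Among the members measured, 7 of 8 had a ratio above 1 on both arrays and 1 of 8, S100a3, a ratio below 1 on both. Over all genes tested, 37.2% had a ratio above 1 on both arrays and 48.7% a ratio below 1, and since this comparison chose the members nothing is read from the difference. Log2 ratios are of overexpression over WT, with the mean of the 2 arrays ± SD, and signals are in the scanner's processed units. Signals of different probes are not on one scale, so levels are compared only within a probe. In bulk RNA, fewer or more cells of a type and less or more RNA per cell cannot be told apart.

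**Figure D1:**
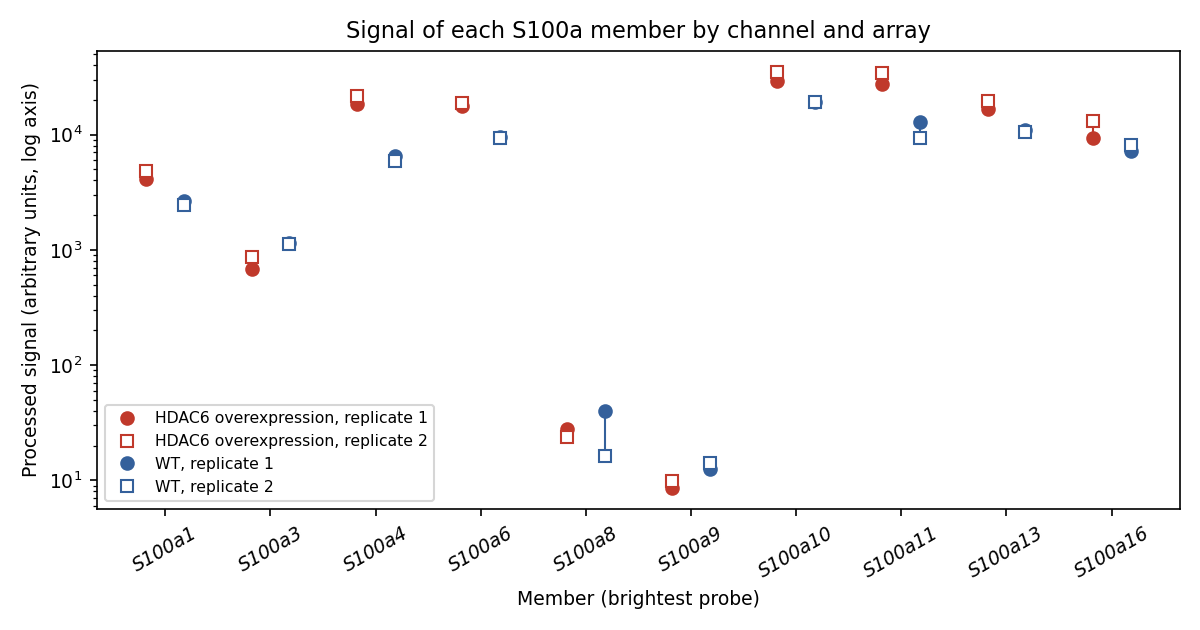
Processed signal (arbitrary units, log axis) of the brightest probe of each of the 10 members, with the overexpression channel left of the WT channel, filled circles for replicate 1 and open squares for replicate 2. In the 7 members with a ratio above 1 both overexpression points lie above both WT points, in S100a3 both lie below, and the signals of S100a8 and S100a9 are all at or below 40.0.

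S100a4 binds non-muscle myosin and takes part in cell motility. Its brighter probe had signals of 18404 and 21474 in the overexpression channel of replicates 1 and 2, against 6516 and 5940 in the WT channel. Both overexpression signals were well over both WT signals, and the ratio was 3.20-fold (log2 1.50 and 1.85, mean 1.68 ± 0.25). The other S100a4 probe had 15188 and 17058 in overexpression against 5905 and 6296 in WT, with a mean log2 ratio of 1.40 ± 0.053. The 2 probes thus gave the same direction on each array and differed by 0.28 in mean log2 ratio, close to the SD between arrays of the brighter probe.

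S100a11, a partner of annexin A1 that takes part in membrane repair and growth control, had signals of 27394 and 34417 in overexpression against 12791 and 9329 in WT. The groups did not overlap, but the ratio was much larger in replicate 2 (log2 1.88) than in replicate 1 (1.099). In replicate 2 the overexpression signal was higher and the WT signal lower. The mean was 1.49 ± 0.55, or 2.81-fold, the widest spread between arrays of any measured member. RefSeq also lists a pseudogene, S100a11-ps, and whether its transcript is read by this probe was not tested.

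S100a6, or calcyclin, binds the calcyclin-binding protein and annexin A11. It had 17823 and 18758 in overexpression against 9553 and 9284 in WT. Its arrays differed least among the brightest probes of the measured members, with a ratio of 1.94-fold (mean log2 0.96 ± 0.081). S100a10, or p11, the annexin A2 partner that carries membrane proteins to the cell surface, had 29378 and 35255 in overexpression against 19220 and 19132 in WT. Its WT signals were nearly equal, so that its ratio (log2 0.61 and 0.88, mean 0.75 ± 0.19, 1.68-fold) differed between arrays through the overexpression channel.

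S100a1 is best known as a calcium regulator of the heart, where it binds the ryanodine receptor. Its brighter probe had 4150 and 4865 in overexpression against 2654 and 2469 in WT (mean log2 0.81 ± 0.24), and its other probe had 2038 and 2271 against 1327 and 1372 in WT (0.67 ± 0.077). The probes differed by 0.14 and lay on the same side. S100a13, which takes part in the release of FGF1 and interleukin 1 alpha by a route that bypasses the secretory pathway, had 16566 and 19522 in overexpression against 10998 and 10523 in WT, and its mean log2 ratio was 0.74 ± 0.21. The array ratios of S100a1 and S100a13, whose promoter windows overlap, overlapped. Those of S100a1 also overlapped with those of S100a6 and of S100a10, so this is not particular to the pair.

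S100a16, a widely expressed member, had 9390 and 13155 in overexpression against 7169 and 8069 in WT at its brighter probe (mean log2 0.55 ± 0.22). Its other probe had 7780 and 10456 against 5542 and 5568 in WT (0.70 ± 0.30). Both probes gave the larger ratio in replicate 2. S100a3, a cysteine-rich member known from the hair cuticle, went the other way, with 682 and 874 in overexpression against 1153 and 1115 in WT (log2 -0.76 and -0.35, mean -0.56 ± 0.29). Both its overexpression signals lay below both its WT signals.

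S100a8 had 27.8 and 23.6 in overexpression against 40.0 and 16.1 in WT, and S100a9 had 8.57 and 9.82 against 12.5 and 14.2 in WT. None of these signals was well above background in either channel on either array, so no ratio is given for the calprotectin genes. The array design holds 1 probe for each of them.

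**Figure D2:**
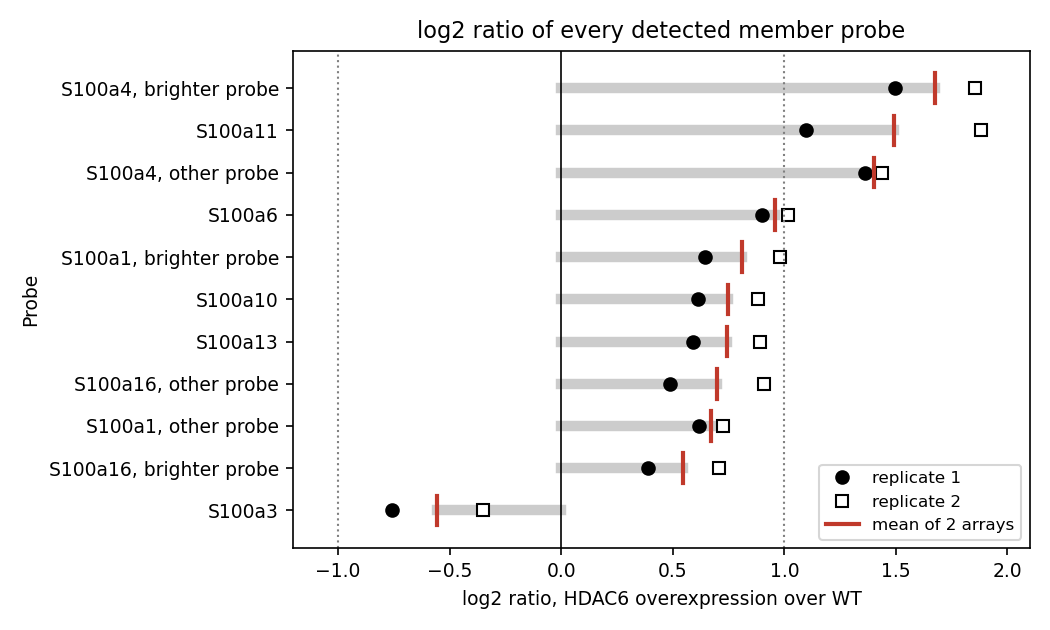
Log2 ratio (overexpression over WT) for each of the 11 probes of the 8 measured members, with replicate 1 as filled circles, replicate 2 as open squares, the mean of both as a red line and dotted lines at a 2-fold change. S100a4 and S100a11 lie past the dotted line on both arrays, S100a3 alone lies left of 0, and replicate 2 lies right of replicate 1 at every probe.

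By mean ratio the order was S100a4, S100a11, S100a6, S100a1, S100a10, S100a13, S100a16 and S100a3. The array values of neighbours in this order overlapped for 5 of the 7 neighbouring pairs. Where they did not, S100a11 exceeded S100a6 by 0.20 in replicate 1 and 0.87 in replicate 2 on the log2 scale, a mean difference of 0.53 that was about as large as the SD of S100a11 itself. S100a16 exceeded S100a3 by 1.15 and 1.06. S100a4 exceeded S100a6 by 0.60 and 0.84. A change of at least 2-fold higher on both arrays was met by 2 of the 8 measured members, S100a4 and S100a11, and by 3.04% of all genes tested. S100a6 lay just inside the line in replicate 2 (1.01) and just outside it in replicate 1 (0.90). No measured member was at least 2-fold lower on both arrays, where 4.4% of all genes tested were.

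All 8 measured members had a higher ratio in replicate 2 than in replicate 1, by 0.11 (S100a6) to 0.78 (S100a11) on the log2 scale with a median of 0.32, while 49.6% of all genes tested did. In the overexpression channel all 8 were brighter in replicate 2, with a median log2 shift of 0.25 against 0.12 over all genes tested, of which 78.8% were brighter there. In the WT channel 7 of 8 were dimmer in replicate 2 at their brightest probe, with a median shift of -0.056. Over all genes the median shift was 0.12, and 21.6% were dimmer there. This count depends on the probe, since the other probes of S100a1 and S100a4 were brighter in WT replicate 2 (0.048 and 0.093). The shift of S100a10 was only -0.0067. Fibroblast markers, a list of 26 measured genes without S100a4, all had a higher ratio in replicate 2 too, with a median shift of 0.52. Their overexpression signal was brighter there in 26 of 26, but their WT signal was dimmer in only 11 of 26 (median shift 0.030). Genes of the primitive and visceral endoderm did not share this, with 6 of 19 higher in replicate 2, nor did the other S100 genes, with 2 of 7. In the list of S100 receptors 6 of 7 were higher there. So were 12 of the 15 measured genes that lie between S100a9 and S100a11 on chromosome 3, with all measured Lce1 genes among them.

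**Figure D3:**
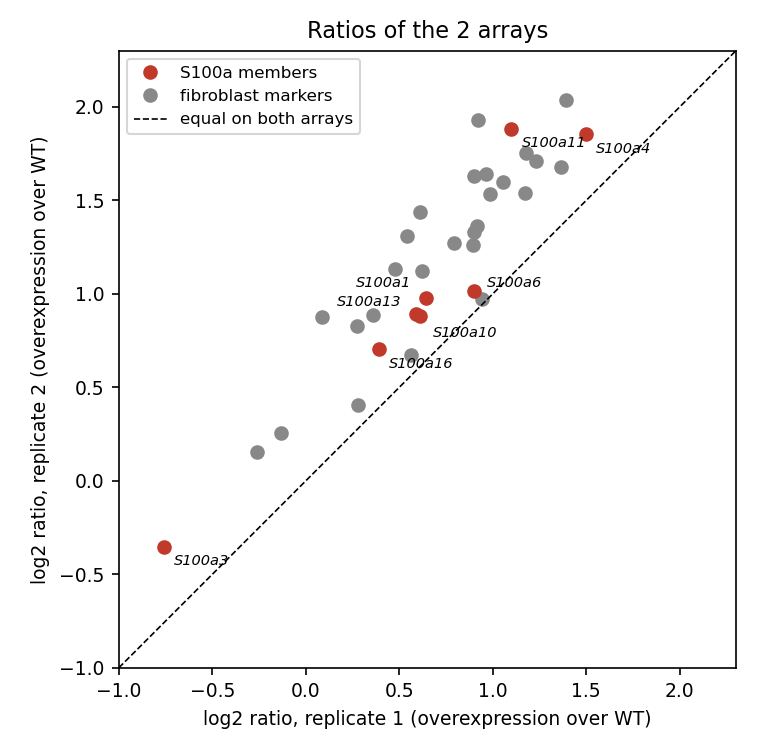
Log2 ratio (overexpression over WT) in replicate 2 against that in replicate 1 for the 8 measured members (red) and 26 fibroblast markers (grey), with a dashed line where both are equal. Every point lies above the dashed line, with S100a6 nearest to it among the members and S100a11 farthest.

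Most fibroblast markers, like most measured members, had a higher signal in overexpression. Of the fibroblast markers, which the feeders express, 23 of 26 measured genes rose and 0 fell by limma at an adjusted p under 0.05 (0 also at an unadjusted p under 0.05), where 21.2% of all genes tested were called higher and 29.9% lower. The median log2 ratio of this list was 1.05, against 0.78 for the 8 S100a members and -0.062 over all genes tested. The collagen chain gene Col1a2 (1.71 ± 0.46, limma adjusted p = 0.00092), the proteoglycan gene Lum (1.52 ± 0.22, limma adjusted p = 0.00046), the surface marker gene Thy1 (1.47 ± 0.34, limma adjusted p = 0.00083) and the matrix gene Fbln2 (1.47 ± 0.41, limma adjusted p = 0.0011) had the largest ratios among those that rose. The summed processed signal of the list was 339163 and 447230 in overexpression against 197162 and 175694 in WT, and all 26 markers were well above background in both groups. The summed signal of the 8 members was 123786 and 148320 against 70054 and 65861 in WT. The part of feeder RNA in the ratios of the members was not tested.

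Myeloid cells are the known source of S100a8 and S100a9. Of 11 measured myeloid markers 8 rose and 0 fell by limma (0 also at an unadjusted p under 0.05), among them Csf1r (1.23 ± 0.036, limma adjusted p = 0.00045), Tyrobp (1.1 ± 0.18), Lyz2 (0.97 ± 0.16) and Spi1, whose WT signal was not well above background (47.6 and 46.2 in overexpression against 36.6 and 15.8 in WT, at least 1.13-fold higher, limma adjusted p = 0.027). Cxcr2, named after its values were seen, also rose and met the filter only through overexpression (56.4 and 58.5 against 39.2 and 36.7 in WT). With well above background required in both channels, 7 markers were called higher and 0 lower. With no filter 11 markers were called higher and 2 lower. The list summed to 67007 and 80025 in overexpression against 51626 and 74085 in WT. The 2 brightest probes, of Itgam (30298 and 36796 against 22833 and 40702 in WT) and Csf3r, did not pass the test and make up most of these sums. The neutrophil granule genes Elane, Mpo, Camp, Ngp and Ltf were not well above background in either group, as was the case for S100a8 and S100a9. The part of myeloid RNA in the result was not tested. Of 10 measured keratinocyte markers, the cells of the epidermis, 2 rose and 4 fell. Ivl rose (1.17 ± 0.85), whereas Krt1 (-0.997 ± 0.12), Lor (-0.78 ± 0.10) and Krt5 (-0.63 ± 0.051) fell. With median centring 4 were called higher. This list summed to 45855 and 50939 in overexpression against 51740 and 73411 in WT. Trp63, named after its values were seen, fell as well (-0.54 ± 0.36) and makes up most of these sums. It had 30799 and 33521 in overexpression against 37587 and 58112 in WT. Dsg3 and Dsc3 were not well above background in either group.

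Markers of the primitive and visceral endoderm rose far more than the members. There 18 of 19 measured genes rose and 1 fell, with a median log2 ratio of 3.07, and no S100a member reached it. With well above background required in both channels, 15 were called higher and 1 lower. Cubn had 5.51 ± 0.055 (limma adjusted p = 1.2e-05), Gata4 4.96 ± 0.17 (limma adjusted p = 2.1e-05) and Foxa2 4.93 ± 0.13 (limma adjusted p = 2e-05). Ttr was not well above background in WT and was at least 31.3-fold higher, with the mean overexpression signal set against the lowest WT signal among probes well above background. The list summed to 203706 and 212405 in overexpression against 36244 and 41351 in WT. Its part in the ratios of the members was not tested. Pluripotent cell markers, which check the labelled cell type, were all 12 well above background in both groups, and summed to 217129 and 237671 in overexpression against 227909 and 243557 in WT. Of these 4 rose, with Tfcp2l1 (1.50 ± 0.14) and Esrrb (0.73 ± 0.14) first, and 4 fell, with Tdgf1 (-1.11 ± 0.045) and Dppa5a (-0.53 ± 0.062) first. With median centring 8 were called higher and 2 lower, the median log2 ratio was 0.58 in place of 0.047, and the call of Tdgf1 was lost (-0.15).

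**Figure D4:**
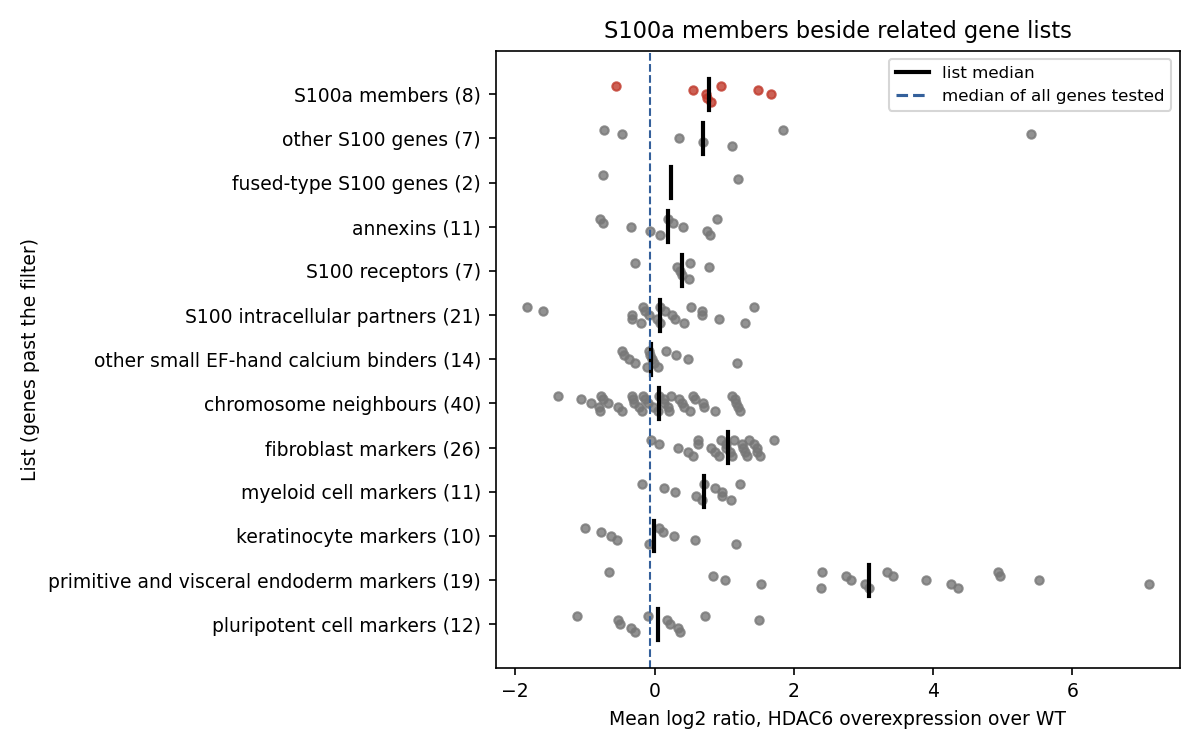
Mean log2 ratio (overexpression over WT) of each measured gene, by list, with the number of genes in brackets, a black bar at each list median and a dashed line at the median of all genes tested (-0.062). The S100a members (red) have a median of 0.78, fibroblast markers 1.05, annexins 0.19 and endoderm markers 3.07.

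The list of other S100 genes holds 9 genes with a probe, of which 7 met the filter. By limma 5 rose and 2 fell. S100g, an intestinal and yolk sac calcium buffer also called calbindin D9k, had 4366 and 4769 in overexpression against 61.0 and 191 in WT (log2 5.40 ± 1.07, limma adjusted p = 0.00029). Its overexpression signals were alike and its ratio differed between arrays through a WT signal near the low end, and the WT signal of its other probe was not well above background. It was 4.51 with normexp and loess, 4.41 with median centring, 6.16 in replicate 1 and 4.65 in replicate 2. S100b, a marker of glia, had 188 and 298 against 52.2 and 83.2 in WT (1.85 ± 0.0072, limma adjusted p = 0.00015), from signals that were dim in both groups, and 1.01 with normexp and loess or 0.98 with median centring. S100a5 had 2513 and 2885 against 1664 and 1650 in WT (0.70 ± 0.15, limma adjusted p = 0.0031).

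S100a7a had 93.9 and 105 in overexpression against 33.7 and 63.2 in WT (1.11 ± 0.52, limma adjusted p = 0.0049), where WT stood well above background in only 1 replicate, and its ratio was 0.49 with normexp and loess and 0.48 with median centring. S100a2 had 156 and 148 against 111 and 129 in WT (0.35 ± 0.21, limma adjusted p = 0.043), and this call was lost with normexp and loess (limma adjusted p = 0.12), with median centring (0.17), with no filter (0.066) and with an intensity trend in the variance (0.10). Lower were S100z, with 560 and 515 against 814 and 961 in WT (-0.72 ± 0.26, limma adjusted p = 0.0049), and S100a14, an epithelial member, with 133 and 177 against 201 and 224 in WT (-0.47 ± 0.18, limma adjusted p = 0.014). S100a7l2 and Sntn, an S100-like gene of cilia, did not meet the filter. Of the fused-type S100 genes, which join an S100 domain to the long repeats of epidermal proteins, 2 of 6 with a probe were measured. Hrnr rose (1.20 ± 0.32) and Tchh fell (-0.74 ± 0.092).

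The annexins, calcium- and membrane-binding proteins that several S100 dimers hold, were mixed. Of 11 measured, 4 rose, 3 fell and 4 did not pass, with a median log2 ratio of 0.19. Anxa2, the partner of S100a10, had 19475 and 22504 in overexpression against 11848 and 12298 in WT (0.79 ± 0.11, limma adjusted p = 0.0018). The mean ratio of S100a10 (0.75) lay between the 2 array values of Anxa2 (0.72 and 0.87), as did those of S100a1 (0.81) and S100a13 (0.74). With median centring S100a10 had 1.49 and Anxa2 1.21, and with normexp and loess they had 0.91 and 0.78. Anxa8 (0.89 ± 0.060, limma adjusted p = 0.0011) and Anxa5 (0.75 ± 0.58, limma adjusted p = 0.024) rose as well, and Anxa10 fell (-0.79 ± 0.18, limma adjusted p = 0.0024). Anxa1, the annexin named with S100a11, had 0.26 ± 0.24 (limma adjusted p = 0.11), and Anxa11, named with S100a6, fell (-0.74 ± 0.32, limma adjusted p = 0.0065). Anxa1 and Anxa11 were named after their values were seen.

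Of 7 measured genes in the list of S100 receptors, 4 rose, 1 fell and 2 did not pass, with a median log2 ratio of 0.39. Tlr4, the receptor of calprotectin, had 160 and 152 in overexpression against 123 and 66.7 in WT (0.79 ± 0.57, limma adjusted p = 0.019). Nptn (0.50 ± 0.075), Mcam (0.39 ± 0.028) and Cd36 (0.37 ± 0.13) rose by less. The call of Cd36 was lost under normexp with loess (limma adjusted p = 0.15), under median centring (0.20) and with an intensity trend (0.082). The gene that fell was Aldh1a3, which encodes an aldehyde dehydrogenase and no receptor (-0.28 ± 0.067, limma adjusted p = 0.049). That call was lost with no filter and with an intensity trend. Ager, the receptor known as RAGE, had 42.8 and 64.5 in overexpression against 39.7 and 34.9 in WT, where it was not well above background. It did not pass (0.50 ± 0.55, limma adjusted p = 0.073), and the size of its ratio is uncertain. Aldh1a3 and Ager were named after their values were seen.

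Genes for intracellular partners and processes of S100 proteins were mixed too. Of 21 measured, 8 rose, 4 fell and 9 did not pass, with a median of 0.082. Plat, the tissue plasminogen activator that the S100a10 and annexin A2 complex binds at the cell surface, had 6325 and 7854 in overexpression against 2629 and 3128 in WT (1.30 ± 0.044, limma adjusted p = 0.00040). Ptgs2, the enzyme cyclooxygenase 2 and no binding partner, rose as well (1.43 ± 0.41, limma adjusted p = 0.0012). The partners of S100a13 went the other way from it. Fgf1 had 541 and 383 against 1245 and 1539 in WT (-1.60 ± 0.57, limma adjusted p = 0.0018), and Syt1, the synaptotagmin of the release complex, had 81.6 and 77.2 against 267 and 300.0 in WT (-1.84 ± 0.17, limma adjusted p = 0.00022). Il1a, the other cargo, did not meet the filter.

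The other partners that passed the test were named after their values were seen. Myh9, the myosin heavy chain that S100a4 binds, had 28609 and 32185 in overexpression against 17837 and 20027 in WT (0.68 ± 0.0020, limma adjusted p = 0.0023). Ahnak, a large scaffold of the S100a10 and annexin A2 complex, had 0.68 ± 0.15 (limma adjusted p = 0.0034). Cacybp, the calcyclin-binding protein gene, had 0.52 ± 0.035 (limma adjusted p = 0.0060), and its binding partner gene Sugt1 had 0.30 ± 0.071 (limma adjusted p = 0.040). S100pbp (0.42 ± 0.021) and the phagocyte oxidase gene Cybb (0.92 ± 0.23) rose too. Cybb had 66.1 and 85.4 in overexpression against 39.0 and 40.2 in WT, where it was not well above background. It met the filter only through overexpression, so the size of its ratio is uncertain. Ryr1, a ryanodine receptor gene, fell (-0.32 ± 0.031, limma adjusted p = 0.030), as did Cyba, the gene of the oxidase's other membrane subunit (-0.32 ± 0.0049, limma adjusted p = 0.029). Genes that did not pass included Trp53 (0.074 ± 0.24), Mdm2 (0.082 ± 0.0073), Ppfibp1 (-0.14 ± 0.063) and Hltf (-0.17 ± 0.17). Of 14 other small EF-hand calcium binders measured, 2 rose, 3 fell and 9 did not pass. With median centring 7 were called higher and 1 lower, and with normexp and loess 4 higher and 2 lower. Sri (0.31 ± 0.14) was among those that rose, whereas Chp1 (-0.47 ± 0.087) and Calm3 (-0.36 ± 0.15) fell. Calm3 turned to 0.17 with median centring, the calls of Chp1 and Calm3 were lost with the mean over probes, and that of Sri with no filter.

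The members lie in 2 stretches of chromosome 3 in the RefSeq order of protein-coding genes. The first runs from S100a1 to S100a9, and the second holds S100a11 and S100a10 next to each other, with 56 genes between the stretches, mostly of the epidermis. The first stretch held genes with ratios on both sides of 1. S100a14 (-0.47) lay between S100a13 (0.74) and S100a16 (0.55). S100a3 (-0.56) followed S100a16 and came before S100a2 (0.35), S100a4 (1.68), S100a5 (0.70), S100a6 (0.96) and S100a7a (1.11).

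Between the stretches 15 of the 56 genes met the filter, of which 9 rose and 4 fell with a median log2 ratio of 0.55. Most of those that rose were of the Lce1 and Sprr2 families, each counted as a separate gene. Whether a probe reads more than 1 gene of its family was not tested. The 14 measured of 15 genes before S100a1 had a median of -0.13, with 1 higher and 4 lower. The 7 measured of 15 genes after S100a10 also had a median of -0.13, with 0 higher by limma (0 also at an unadjusted p under 0.05) and 3 lower. Over all 40 measured neighbours 13 rose and 12 fell, with a median of 0.058 that turned to -0.025 with no filter and to -0.011 in replicate 1 alone. The 750 other genes of chromosome 3 had a median of -0.062, the same as over all genes tested. Lce3b fell (-1.38 ± 0.22), and its overexpression signal was not well above background, so it was at least 1.76-fold lower. Lce1g (1.23 ± 0.54), Hrnr and Ivl rose.

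**Figure D5:**
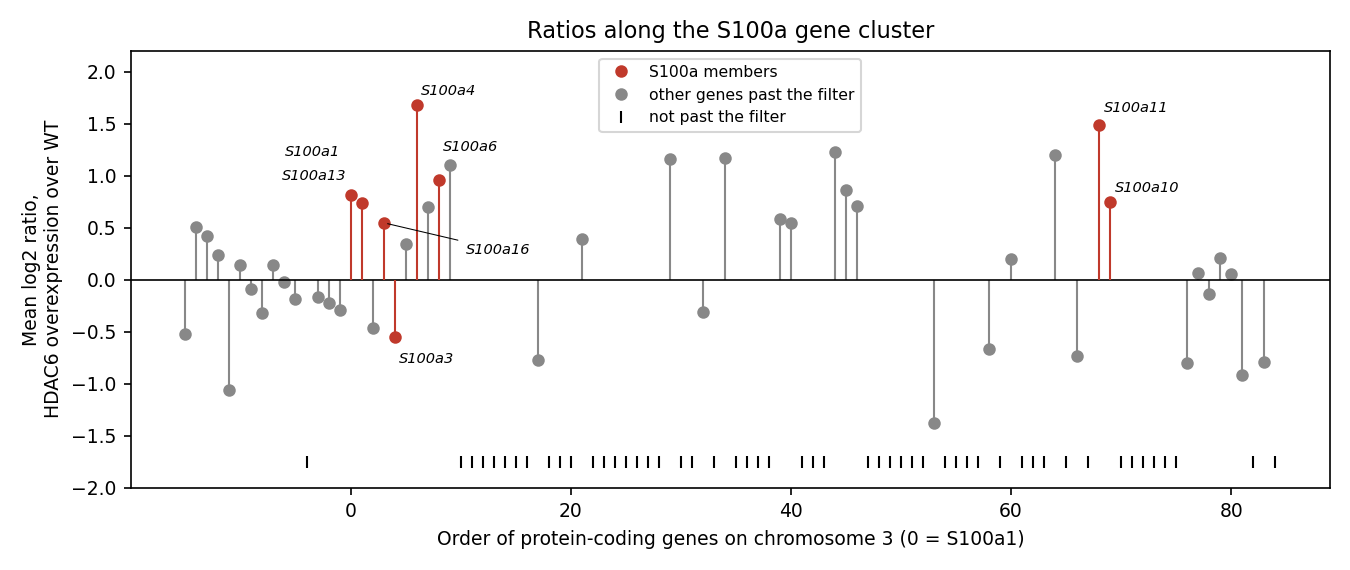
Mean log2 ratio (overexpression over WT) of measured genes in the order of protein-coding genes along chromosome 3, counted from S100a1 at 0, with members in red, other genes in grey and ticks for genes that did not meet the filter. S100a3 is the one member below 0, S100a4 and S100a11 are the highest points, and the genes left of S100a1 and right of S100a10 lie on both sides of 0.

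Most measured members were bright. On the scale of mean processed signal S100a10 and S100a11 were in decile 10, the brightest, of the genes tested, S100a4, S100a6 and S100a13 in decile 9, S100a16 in decile 8, S100a1 in decile 5 and S100a3 in decile 4. Centring each array on its median, with normexp and no correction of the ratio for intensity, gave a median log2 ratio of 0.53 in decile 10 of all genes, against -0.067 with the processed signals. Under median centring S100a10 had 1.49 in place of 0.75, S100a11 1.96 in place of 1.49, S100a13 1.08 in place of 0.74 and S100a6 1.21 in place of 0.96. S100a4 had 1.88 in place of 1.68 and S100a16 0.68 in place of 0.55, whereas S100a1 had 0.66 in place of 0.81 and S100a3 -0.62 in place of -0.56. The directions of all 8 measured members were the same under each of the alternatives run.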

How the data were processed

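Expression was measured on 2 two-colour Agilent arrays of mouse ESCs, 1 per replicate. Per the file headers, Agilent Feature Extraction 11.5.1.1 quantified each scan. The deposited processed intensity values were background-subtracted and dye-normalized within each array by that software, and the files also hold raw median intensities. The deposited log10 ratio is that of processed Cy5 over Cy3 signal and was not used beyond a check. The deposited series table holds log2 ratios of WT over overexpression. Its columns correlated at -1.000 and -1.000 with the scanner ratios (slopes -1.000 and -1.000), which settles scale and direction; the column medians were -0.0074 and 0.062, and any further centring is unknown.

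Outlier-marked spots (269 and 313) and 3671 controls were dropped, none was saturated, and copies of each probe were averaged. Of 55681 probes, 26762 matched 1 symbol by unversioned accession in RefSeq (GRCm38.p6), 0 several and 28919 none; the array grid was built on mm9, so no gene coordinates are given. Each gene took its brightest probe by mean processed signal, which had to stand well above background on both arrays within at least 1 given channel. The log2 ratio was tested against 0 with limma 3.58.1 in R 4.3.3 (lmFit and eBayes, two-sided, Benjamini-Hochberg over 16067 genes), with 1 residual and 4.59 prior degrees of freedom and a typical standard error of 0.094. Copies of a probe on 1 array had an SD of 0.21 and 0.22. The fit was tested on simulated ratios, where it seldom recovered the smallest changes and its share of false calls was usually above the 0.05 level, so calls near the threshold are less sure than their adjusted p. Arrays limit the precision by their number. Well above background were 68.7% and 68.6% of probes in overexpression against 68.8% and 68.1% in WT. The members, 12 gene lists and rules were chosen with earlier results of these data known. The naming rule takes all S100 genes, Hdac6 and up to 4 called genes per list (same sign on both arrays) with the largest absolute mean log2 ratio, or up to 2 where none was called. Alternatives were normexp (offset 50) on median signals with loess or median centring, the deposited series table, other filters, the mean over probes, outlier spots kept, an intensity trend and each array alone. Protein sequences were not used here, and 1 gene that the naming rule takes is not reported here.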

Additional observations from a re-analysis of the deposited data

How the results depend on the processing

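Genes past 2-fold on both arrays were 489 higher and 707 lower with the processed signals, and 287 and 455 with normexp and loess. With either array left out they ranged from 569 to 895 higher and from 857 to 1070 lower. The members at least 2-fold higher on both arrays were 2, and 4 with median centring, and from 2 to 3 with either array left out. Counts of limma calls over all genes stayed within 1.5 times of the reported count under the alternatives run. So did those for the other S100 genes, annexins, intracellular partners, fibroblast markers, primitive and visceral endoderm markers and chromosome neighbours. Those of other lists did not. With median centring small EF-hand binders went to 7 higher and 1 lower in place of 2 and 3, pluripotent markers to 8 and 2 in place of 4 and 4, and keratinocyte markers to 4 higher in place of 2. EF-hand binders had 4 higher with normexp and loess, 1 higher with no filter and 1 lower with the mean over probes. With no filter fused-type genes had 2 higher in place of 1 and myeloid markers 2 lower in place of 0, and receptors had 0 lower in place of 1 both there and with an intensity trend. Among the 48 named genes S100a2, Cd36, Chp1, Calm3, Sri and Tdgf1 lost their call under an alternative, as given beside them above. Medians that changed sign were those of the fused-type genes (-0.0062 with median centring), the small EF-hand binders (0.24 with median centring and 0.0092 without replicate 2, against -0.11 without replicate 1), the keratinocyte markers (0.042 with median centring and 0.055 without replicate 1, against -0.12 without replicate 2) and the chromosome neighbours (-0.025 with no filter and -0.011 without replicate 2, against 0.063 without replicate 1). Calm3 turned to 0.17 with median centring and Hdac6 to -0.038 without replicate 1 (0.16 without replicate 2), and Hdac6 was called at 0.52 with median centring (limma adjusted p = 0.0013). The cause of these changes was not tested. No test was possible with 1 array, since no residual degree of freedom is left. The limma test of the ratio within each array against 0 already pairs the groups, with 1 ratio per replicate number. With 2 arrays and 1 dye orientation, dye effects cannot be told apart from the groups, and signals near background, as for S100a8, S100a9, S100a7a and S100b, are the least certain.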
